A study of Drosophila melanogaster with 9 samples.

Results

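The genes described here were higher in the gut on complete food than on sugar alone or on agar, and stood at similar levels on both poor diets. They were chosen from the data by conditions on the log2 RPKM values (RPKM scales a gene's reads to the length of its transcript and to the library's total). A gene qualified when its mean on standard medium was at least 0.7 above its mean on glucose and at least 0.7 above its mean on agar, while the means on agar and glucose lay within 0.5 of each other. Its lowest standard library also had to exceed all 6 other libraries, and its mean on standard medium had to reach 2 RPKM. Of 10245 genes, 329 met the first condition, 245 the first pair, 186 also the third, 34 also the fourth and 26 all of them. A further 11 were set aside by name (LysB, LysD, LysE, Jon25Biii, Jon65Ai, Jon65Aiii, bmm, CR44138 and 3 copies of His1), which left 15 genes.

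Whole guts of adult Drosophila melanogaster females of the wild-type Oregon R strain were collected from flies kept on 10% glucose, on agar or on standard medium. Each diet had 3 biological repeats, which gave 9 libraries. The composition of the standard medium, the age of the flies and the time on each diet are not given in the labels. All animals were of the same strain and sex, and nothing beyond the word repeat says how far the samples of a diet were raised apart, so the spread between them may be partly technical. Because the conditions used all 3 diet contrasts, the diet differences of the 15 genes are descriptions and carry no test, and both differences of a gene share its standard libraries.

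The fly midgut digests food with enzymes that its enterocytes, the absorptive cells, secrete into the lumen. The products enter the cells through solute carriers, membrane proteins that fall into numbered families by the ions, amino acids or organic acids they move. A sheet of chitin and protein, the peritrophic matrix, separates food from the cells, and scattered enteroendocrine cells release peptide hormones such as DH31 that act on gut muscle and other tissues.

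The libraries held 34899709 to 48389188 reads, so 1 read per kilobase stood for 0.0207 to 0.0287 RPKM. Libraries of 1 diet were not all alike. Relative to its own median over the 9 libraries, the typical histone gene (114 in all) lay 3.98 higher on the log2 scale in standard replicate 2 and 3.32 higher in standard replicate 3, against -0.17 in standard replicate 1. Summed over 117 genes listed as non-polyadenylated transcripts, levels were 54400, 92230 and 70400 RPKM in standard replicates 1, 2 and 3. They were 21510 to 29050 on glucose and 12730 to 27320 on agar. For tests, 8036 genes were kept that reached 1 RPKM in 3 or more libraries, and over them the median difference was -0.33 for standard minus glucose and -0.36 for standard minus agar, and median-ratio scaling, which divides each library by its median ratio to a common reference, moved these to -0.02 and -0.01. Summed enterocyte markers ranged from 14230 to 20170 RPKM on standard medium, from 14640 to 17510 on glucose and from 9370 to 19270 on agar, where the lowest value was that of replicate 3. Most of each sum came from alphaTry and betaTry, which were at 5255 and 3202 RPKM in agar replicate 3. By gene, the median difference of the 11 markers was -0.19 for standard minus glucose and -0.32 for standard minus agar. Above 0 were 1 and 2 of them. All 11 of these markers were above 1 RPKM in every library. Summed progenitor markers (13 genes) ranged from 50.1 to 53.7 RPKM on standard medium, from 70.8 to 77.4 on glucose and from 65.4 to 73.0 on agar, and summed muscle markers (15 genes) from 481 to 657, from 509 to 719 and from 571 to 698. The 6 ovary markers together stayed at or below 5.37 RPKM in every library. The part of these shifts in the results was not tested. In bulk tissue, fewer cells of a type and less RNA per cell cannot be told apart.

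The median difference of the 15 genes was 1.17 for standard minus glucose (range 0.72 to 2.52), 1.23 for standard minus agar (range 0.80 to 2.75) and -0.08 for agar minus glucose (range -0.41 to 0.23). Median-ratio scaling changed the 3 values to 1.48, 1.58 and -0.12. Quantile normalization, which gives all libraries the same distribution, changed them to 1.12, 1.25 and -0.09. Among the tested genes 1.48% had their lowest standard library above all 6 others, which for the 15 genes was a condition of choice. By level, 5 genes had a mean above 100 RPKM on standard medium, 3 lay between 10 and 100, and 7 lay below 10. By kind, 7 of the 15 encode transporter-type proteins and 2 encode ecdysteroid kinase-like proteins. The others include a protease, a chitinase, a peptide hormone receptor and a phosphatidylethanolamine-binding protein. These counts depend on the names set aside, which included proteases and lysozymes. The share of each kind over all genes was not determined.

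**Figure D1:**
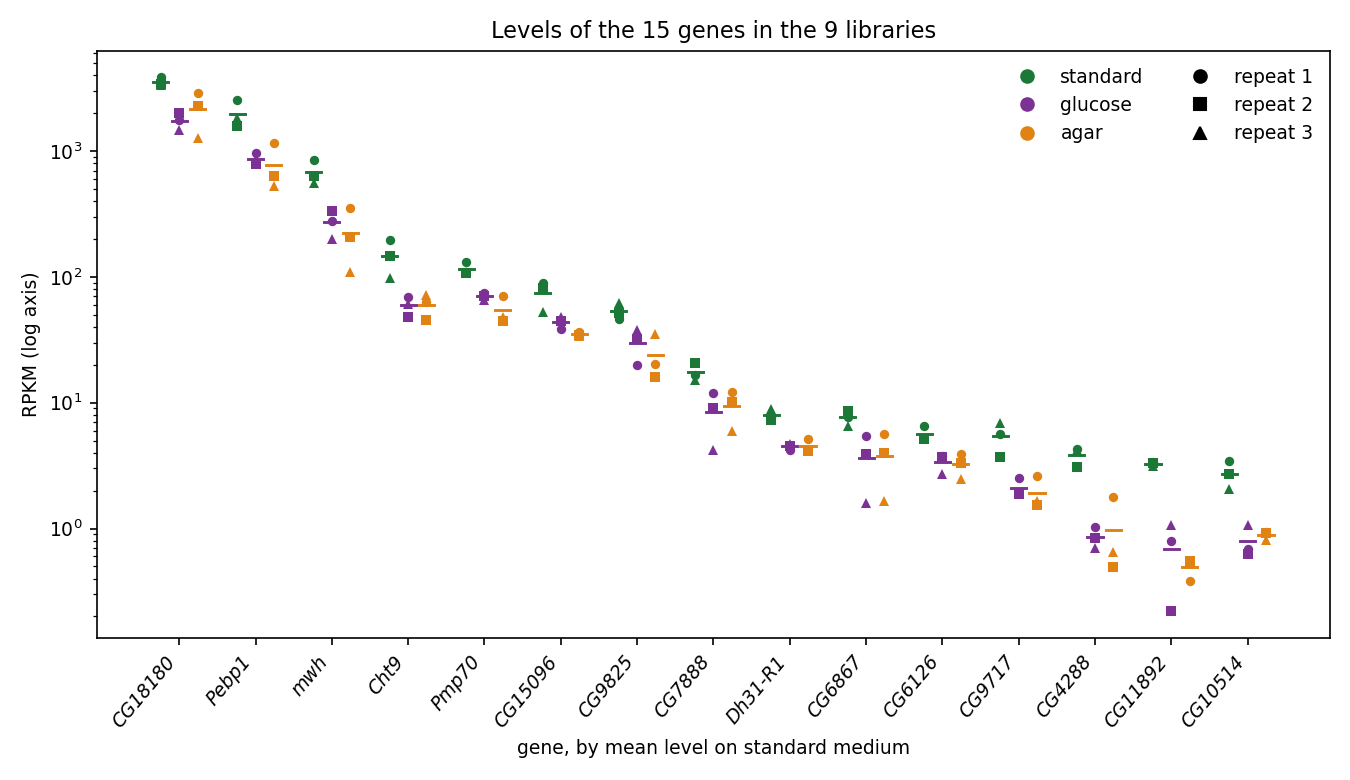
Level of each of the 15 genes in the 9 libraries, as RPKM on a log axis, with genes ordered by their mean on standard medium. Colours stand for diets, symbols for repeats and short lines for diet means; the 3 standard libraries lie above the other 6 for every gene, as the choice requires, from CG18180 at 3369 to 3859 RPKM down to CG10514 at 2.07 to 3.42.

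CG18180, the gene with the highest level of the 15, encodes a chymotrypsin-like serine protease, of the kind that cuts dietary protein. It stood at 3859, 3428 and 3369 RPKM in standard replicates 1, 2 and 3, at 1761, 2006 and 1472 on glucose and at 2891, 2295 and 1268 on agar. All standard libraries were higher than the rest, but agar replicate 1 came close to them and agar replicate 3 was the lowest of all. The means were 3552 ± 267 (SD, n = 3), 1746 ± 267 and 2151 ± 821. Fold differences between diets are taken throughout from the means of the log2 values, not from the mean RPKM. Here they were 2.05-fold from glucose and 1.74-fold from agar. Without agar replicate 3 the standard minus agar difference was 0.46 in place of 0.80 on the log2 scale. By mean level CG18180 was the 24th gene on standard medium, the 32nd on glucose and the 15th on agar, and after quantile normalization its standard minus agar difference was -0.10. It lies within the span of the gene fry in the RefSeq annotation, and fry itself was at 5.22, 6.47 and 7.75 mean RPKM on standard medium, glucose and agar.

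The neighbouring serine protease-like gene CG18179 was not among the 15 because its agar and glucose means differed by 0.74. Its 3 standard libraries were at 96.0, 87.5 and 78.3 RPKM, its glucose libraries at 22.2, 27.9 and 30.2 and its agar libraries at 59.0, 36.3 and 40.7, without overlap between standard medium and either other diet. The difference was 1.71 ± 0.20 (SE) from glucose and 0.97 ± 0.20 from agar, with adjusted p = 0.0090 and 0.00926 in limma's moderated test with Benjamini-Hochberg adjustment over all 8036 genes. The second of these was 1.04 with adjusted p = 0.0517 after quantile normalization, and over all alternatives its adjusted p ranged from 0.0045 to 0.0944. A list of serine protease-like genes that leaves out the Jonah and trypsin clusters held 22 tested genes beside CG18180, of which 2 were higher and 2 lower on standard medium than on glucose, and 6 higher and 5 lower than on agar. Of all tested genes 0.908% were higher and 23.1% lower on standard medium than on glucose, and 2.23% and 38.2% than on agar. Under median-ratio scaling the list gave 3 higher and 0 lower against glucose (all genes 0.61% and 0.336%), and 6 higher and 0 lower against agar (2.58% and 1.94%). After quantile normalization 1 was higher and 0 lower against glucose (all genes 0.311% and 0.386%), and 0 were higher and 2 lower against agar (1.51% and 2.89%). With the repeat number as a block in the fit 4 were higher and 3 lower against glucose, where the shares of all genes were 3.6% and 43.2%, and 7 and 6 against agar, where they were 4.78% and 51.2%.

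Cht9 encodes a chitinase, an enzyme that cleaves the chitin found in fungal walls, insect cuticle and the peritrophic matrix. It stood at 195, 147 and 98.8 RPKM on standard medium, at 69.8, 48.5 and 60.9 on glucose and at 63.4, 45.3 and 71.7 on agar. Glucose and agar libraries were intermixed, with means 59.7 ± 10.7 and 60.1 ± 13.5, while the standard libraries were spread more widely, at 147 ± 48.1. Both differences came to 2.40-fold. Of 10 other chitinase family genes tested, 0 were higher on standard medium against either diet, where the shares of all genes were 0.908% and 2.23%. Beside shares of 23.1% and 38.2%, 5 were lower than on glucose and 4 lower than on agar. They included the imaginal disc growth factors, chitinase relatives without the catalytic activity, for example Idgf2 at -0.56 from glucose and -0.73 from agar (adjusted p = 0.0182 and 0.00483, limma), the first of which did not pass when any 1 glucose library or standard replicate 3 was left out (0.0547 to 0.0647). Under median-ratio scaling 0 of the 10 passed in either direction against either diet. With the block 6 were lower than on glucose and 7 lower than on agar, where the shares of all genes were 43.2% and 51.2%.

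Pebp1 belongs to the phosphatidylethanolamine-binding proteins, small proteins that bind lipids and, in mammals, also regulate kinases. Its RPKM values were 2558, 1594 and 1820.1 on standard medium, 962, 797 and 860.1 on glucose, and 1157, 631 and 528 on agar. Standard replicate 1 was the highest library and agar replicate 1 the highest of the other 6, so repeat 1 was high on each diet. The differences were 2.24-fold from glucose and 2.68-fold from agar. The 3 other tested members of the family were CG6180, CG7054 and CG17919, at 12.8 to 47.5 mean RPKM on standard medium. Their differences lay between 0.02 and 0.14 from glucose and between -0.30 and -0.04 from agar. Only CG7054, which lies beside Pebp1, passed the test, as lower than on agar (adjusted p = 0.0497, limma), and it did not pass when any 1 of the 9 libraries was left out (0.0514 to 0.136). The gene on the other side of Pebp1, CG5377, lay just outside the threshold at 0.68 ± 0.16 (SE) from glucose and 0.68 ± 0.16 from agar (adjusted p = 0.0246 and 0.0132, limma). The first did not pass when any 1 glucose library or standard replicate 3 was left out (0.0601 to 0.0842), nor the second without agar replicate 2 (0.0502).

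Several of the genes encode transporters. Pmp70, now named Abcd3, encodes an ABC transporter of the peroxisomal membrane, whose human counterpart brings fatty acids into the organelle for oxidation. It stood at 132, 107 and 109.5 RPKM on standard medium, at 75.0, 70.4 and 65.8 on glucose and at 70.7, 44.4 and 47.7 on agar. The standard libraries were close together and well clear of the others, and agar replicates 2 and 3 were lowest. The gene was 1.65-fold above glucose and 2.18-fold above agar. Of 14 peroxisome assembly and other peroxisomal ABC genes tested, 0 were higher against either diet (0.908% and 2.23% of all genes). Lower than on glucose were 2 and lower than on agar 6, near the shares of all genes (23.1% and 38.2%), among them Pex10 (-0.68 from agar, adjusted p = 0.00363, limma), and 0 passed in either direction under median-ratio scaling. With the block 4 were lower than on glucose and 8 lower than on agar (43.2% and 51.2% of all genes).

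The SLC17 family comprises anion transporters related to the vesicular glutamate and sodium-phosphate carriers, and 3 of the 15 genes belong to it. CG15096 was at 89.7, 82.1 and 52.2 RPKM on standard medium, 38.8, 44.9 and 48.2 on glucose and 36.2, 34.7 and 34.0 on agar. Its margin was the smallest of the 15, since standard replicate 3 was only 1.08-fold above glucose replicate 3. CG9825 was at 46.1, 51.5 and 61.9 RPKM on standard medium, at 19.9, 32.0 and 37.9 on glucose and at 20.3, 15.9 and 35.4 on agar, so that repeat 3 was the highest of each diet. CG4288, now named MFS9, was at 4.32, 3.11 and 4.18 RPKM on standard medium, at 1.03, 0.841 and 0.694 on glucose and at 1.78, 0.496 and 0.646 on agar. Its libraries on the poor diets were low throughout apart from agar replicate 1, and its differences of 4.55-fold from glucose and 4.62-fold from agar were among the largest. Against these, CG15096 differed by 1.66-fold and 2.08-fold and CG9825 by 1.83-fold and 2.35-fold.

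CG9825 lies in a run of SLC17 genes on chromosome arm 2R. In chromosome order CG30272 (now MFS1), CG30265, CG12490, CG9825 and CG9826 follow each other, and all 5 had positive differences in both comparisons, whereas the next measured gene, CG13531, was at -0.28 and -0.46. CG30272 had 67.5, 72.6 and 70.4 RPKM on standard medium, 29.7, 20.8 and 15.8 on glucose and 33.3, 8.41 and 8.28 on agar. Its standard libraries were nearly equal and every other library lay below the lowest of them; it was left out of the 15 because its agar and glucose means differed by 0.69. The difference was 1.71 ± 0.49 (SE) from glucose and 2.41 ± 0.49 from agar (adjusted p = 0.0387 and 0.00909, limma), the first of which became 0.111 under median-ratio scaling and ranged from 0.0147 to 0.263 over all alternatives, passing with none of the 6 standard and glucose libraries left out in turn. CG12490, at 5.05 ± 0.70, 1.73 ± 0.28 and 1.14 ± 0.48 mean RPKM on standard medium, glucose and agar, differed by 1.55 ± 0.31 (SE) and 2.23 ± 0.31 (adjusted p = 0.0178 and 0.00389, limma), and the first did not pass without glucose replicate 1 or 2 or standard replicate 3 (0.0566 to 0.0605). CG9826 rose against glucose (1.02 ± 0.30, adjusted p = 0.0414), though not under median-ratio scaling (0.0849), after quantile normalization (0.0801) or when any 1 of the standard or glucose libraries or agar replicate 2 was left out (0.0527 to 0.109). Its 0.52 against agar did not pass (adjusted p = 0.187), and CG30265 passed in neither comparison (0.45 and 1.10, adjusted p = 0.42 and 0.0707, limma). With the repeat number as a block, CG9826 and CG30265 also passed against agar.

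**Figure D2:**
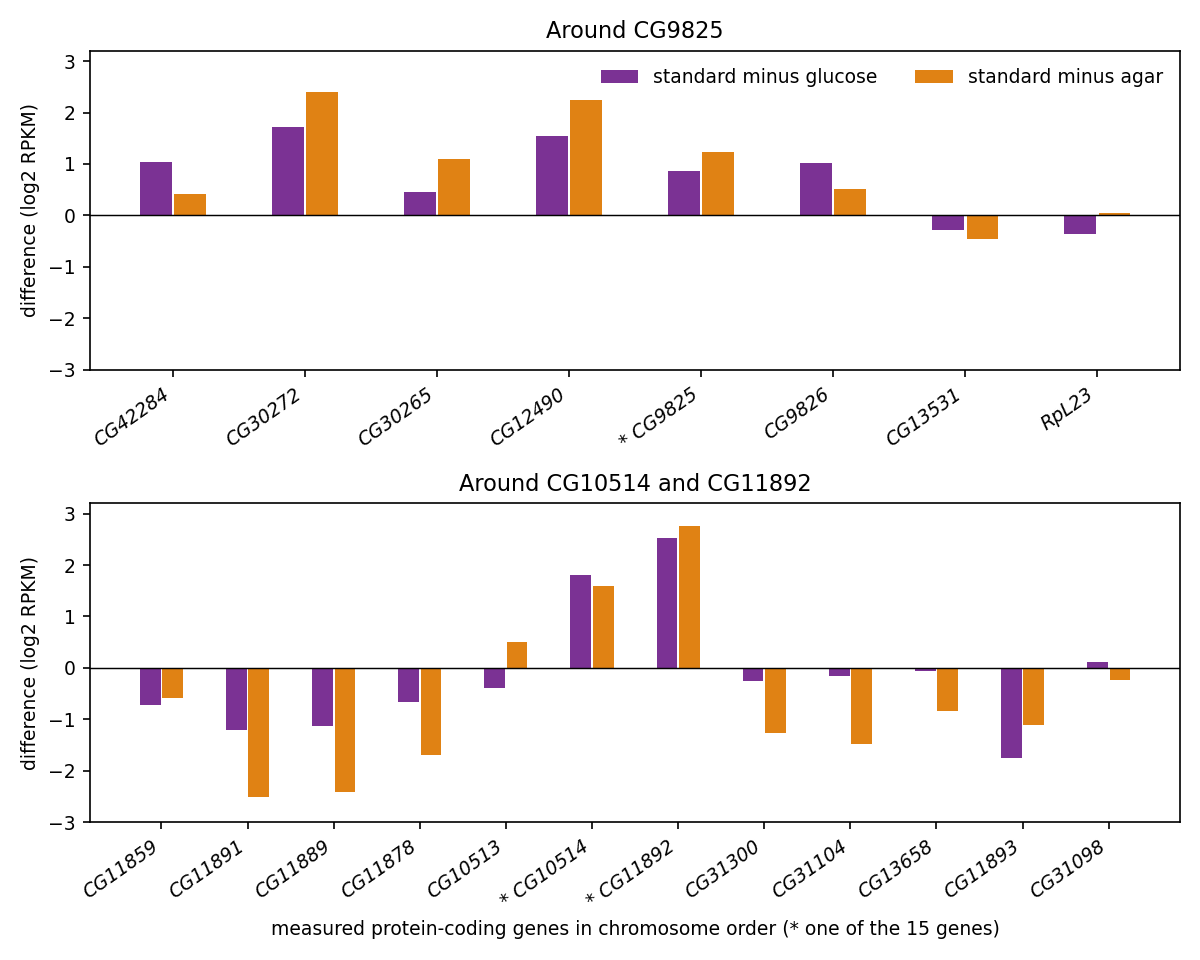
Differences on the log2 RPKM scale for measured protein-coding genes in chromosome order around CG9825 (top) and around CG10514 and CG11892 (bottom); bars show standard minus glucose and standard minus agar, asterisks mark the genes among the 15, and CG42284 and CG11893 were below the expression filter. In the top panel 5 adjacent SLC17 genes lie above 0 in both comparisons; in the bottom panel the 2 marked genes lie at 1.60 to 2.75 while CG11891 and CG11889, further along the same run of genes, lie at -2.51 and -2.41 against agar.

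Across the SLC17 family, 15 tested genes were not among the chosen. On standard medium 4 of them were higher and 3 lower than on glucose (all genes 0.908% and 23.1%). Against agar 5 were higher and 2 lower (2.23% and 38.2%). With the block these counts were 5 and 3 (all genes 3.6% and 43.2%), and 7 and 3 (4.78% and 51.2%). Under median-ratio scaling they were 2 and 0 (0.61% and 0.336%), and 5 and 0 (2.58% and 1.94%). After quantile normalization they were 1 and 0 (0.311% and 0.386%), and 5 and 0 (1.51% and 2.89%). The higher genes included dmGlut, the dietary and metabolic glutamate transporter gene, at 179 ± 6.78 RPKM on standard medium, 119 ± 7.92 on glucose and 86.6 ± 9.41 on agar (0.59 and 1.05, adjusted p = 0.0197 and 0.00292, limma), although the first fell to 0.28 with adjusted p = 0.503 after quantile normalization, the highest of its alternatives, which started at 0.0121, and did not pass when any 1 glucose library or standard replicate 2 or 3 was left out (0.0505 to 0.0739). The lower genes included MFS16 at -0.60 and -0.44 (adjusted p = 0.0150 and 0.00764, limma), neither past the threshold under median-ratio scaling and the first not without glucose replicate 1 or 2 (0.0538 and 0.0605). The neighbour of CG15096, MFS14, moved the other way, from 62.1 ± 26.4 RPKM on glucose to 19.1 ± 4.36 on standard medium (-1.64 ± 0.43 SE, adjusted p = 0.0315, limma). That call was lost under median-ratio scaling (0.166) and when any 1 glucose library or standard replicate 2 or 3 was left out (0.06 to 0.0961). Its -1.17 against agar did not pass in the main fit (adjusted p = 0.0588, limma). It passed under 2 of 19 alternatives, among them the block (0.0393), and the lowest adjusted p was 0.01.

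CG7888 encodes an SLC36-type amino acid transporter, a family whose mammalian members take up small neutral amino acids together with protons. It had 16.5, 20.9 and 15.3 RPKM on standard medium, 12.04, 9.16 and 4.21 on glucose and 12.3, 10.2 and 5.97 on agar. Repeat 3 was the lowest of every diet, most clearly on glucose and agar. The gene was 2.25-fold above glucose and 1.92-fold above agar. Among 6 other SLC36-type genes tested, 0 were higher and 1 lower on standard medium than on glucose (all genes 0.908% and 23.1%). Against agar 2 were lower and 3 higher (38.2% and 2.23%). The 3 were CG8785 (1.32 ± 0.21 SE), CG4991 (1.03 ± 0.29) and CG16700 (0.62 ± 0.19), with adjusted p = 0.00532, 0.0247 and 0.0318 in limma. CG4991 did not pass without agar replicate 2 or 3 or standard replicate 1 or 2 (0.063 to 0.0847), and CG16700 not without agar replicate 2, glucose replicate 2 or standard replicate 1 or 2 (0.0507 to 0.101). Against glucose the same 3 genes were at 0.42, 0.10 and -0.18, with adjusted p = 0.155, 0.791 and 0.47. CG1139 was at 12.2 ± 8.30 RPKM on agar, 1.59 ± 0.13 on glucose and 1.08 ± 0.10 on standard medium, a difference of -3.18 ± 0.52 (SE) against agar (adjusted p = 0.00536). In the wider list of amino acid and peptide transporters, 24 genes beside CG7888 were tested. Of these 1 was higher and 4 lower than on glucose (all genes 0.908% and 23.1%), and 5 were higher and 5 lower than on agar (2.23% and 38.2%). Under median-ratio scaling the counts were 1 and 1 (0.61% and 0.336%), and 5 and 1 (2.58% and 1.94%). After quantile normalization they were 0 and 1 (0.311% and 0.386%), and 5 and 1 (1.51% and 2.89%). With the block they were 1 and 7 (3.6% and 43.2%), and 6 and 8 (4.78% and 51.2%).

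CG6126, of the SLC22 type that carries organic cations and anions, had 6.49, 5.12 and 5.23 RPKM on standard medium, 3.75, 3.73 and 2.72 on glucose and 3.91, 3.30 and 2.49 on agar. The 6 libraries of the poor diets overlapped fully, with repeat 3 lowest in each, and the differences were 1.66-fold and 1.76-fold. Of 6 other SLC22-type genes tested, 0 were higher and 1 lower than on glucose (all genes 0.908% and 23.1%). Against agar 1 was higher and 2 were lower (2.23% and 38.2%). The higher one was Orct (0.54 ± 0.13 SE, adjusted p = 0.0129, limma). Under median-ratio scaling it was the only one of the 6 to pass in either comparison (2.58% of all genes were higher than on agar). With the block 2 were lower against each diet (43.2% of all genes against glucose and 51.2% against agar).

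CG9717, of the SLC26 type that carries sulfate and other anions, had 5.67, 3.68 and 6.95 RPKM on standard medium, 2.54, 1.89 and 1.89 on glucose and 2.59, 1.55 and 1.64 on agar. In reads these were 734, 432 and 824 on standard medium against 187 to 257 on glucose and 144 to 263 on agar, and standard replicate 2 was the lowest of its diet. The differences were 2.52-fold and 2.80-fold. Of 5 other SLC26-type genes tested, 0 were higher against either diet (0.908% and 2.23% of all genes). Lower than on glucose was 1 and lower than on agar were 3 (23.1% and 38.2% of all genes). Under median-ratio scaling 0 passed in either direction. With the block 2 were lower than on glucose (43.2% of all genes). Against agar 1 was higher, besides the 3 lower (4.78% and 51.2% of all genes).

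Dh31-R1, now named Dh31-R, encodes the G protein-coupled receptor for the peptide hormone DH31. It had 7.64, 7.30 and 8.91 RPKM on standard medium, 4.24, 4.56 and 4.73 on glucose and 5.18, 4.14 and 4.16 on agar. It had the tightest glucose and agar libraries of the 15, which spanned 1.25-fold from lowest to highest. By log2 mean the standard libraries lay 1.76-fold and 1.77-fold above them. The hormone's own gene, Dh31, was at 4830 ± 381 RPKM on standard medium, 5150 ± 250 on glucose and 5550 ± 638 on agar. Its differences of -0.10 and -0.20 did not pass (adjusted p = 0.643 and 0.333, limma) and changed sign under median-ratio scaling. After quantile normalization they were -0.56 and -0.82 (adjusted p = 0.232 and 0.0674, limma).

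CG10514 and CG11892 adjoin each other on chromosome arm 3R and encode ecdysteroid kinase-like proteins, a family named after the silkworm enzyme that phosphorylates ecdysteroid hormones. CG11892 had 3.37, 3.33 and 3.12 RPKM on standard medium, 0.795, 0.221 and 1.06 on glucose and 0.384, 0.547 and 0.544 on agar. Its standard libraries were almost equal, and every other library was at least 2.95-fold below the lowest of them, the widest margin of the 15. CG10514 had 3.42, 2.71 and 2.07 RPKM on standard medium, 0.690, 0.623 and 1.06 on glucose and 0.941, 0.918 and 0.805 on agar, and in reads 224, 161 and 124 against 33 to 53 on glucose and 43 to 48 on agar. Both genes were low on the poor diets, and their standard levels were 5.74-fold and 3.48-fold above glucose and 6.74-fold and 3.02-fold above agar, in that order. Without glucose replicate 2, its lowest library, CG11892 was 3.57-fold above glucose. On a log2(RPKM + 1) scale, which shrinks differences of low genes, the values of CG11892, CG10514 and CG4288 were 1.37, 1.05 and 1.39 from glucose and 1.52, 0.97 and 1.35 from agar.

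Of the genes around this pair, some were lower on standard medium. CG11891 was at 4.41 ± 1.34 RPKM on standard medium, 9.94 ± 2.05 on glucose and 25.3 ± 9.57 on agar, a difference of -1.20 ± 0.31 (SE) and -2.51 ± 0.31 (adjusted p = 0.0286 and 0.00318, limma). CG11889 was at -1.13 ± 0.30 and -2.41 ± 0.30 (adjusted p = 0.0310 and 0.00321). The levels of CG11891 and CG11889 ran in parallel across the libraries. Whether these genes share reads was not tested, so they may not be separate observations. For both, the call against glucose was lost when any 1 glucose library or standard replicate 2 or 3 was left out (0.0546 to 0.0832 for CG11891, 0.058 to 0.0886 for CG11889). CG31300, the gene next to CG11892, was lower than on agar (-1.27 ± 0.31, adjusted p = 0.0151) with -0.26 against glucose (adjusted p = 0.518), and CG10513, next to CG10514, passed in neither comparison (-0.39 and 0.50, adjusted p = 0.406 and 0.285). Over the whole family, 38 other genes were tested: 1 was higher and 7 lower than on glucose (all genes 0.908% and 23.1%). Against agar 2 were higher and 18 lower (all genes 2.23% and 38.2%). Under median-ratio scaling the counts were 1 and 0 (all genes 0.61% and 0.336%), and 2 and 5 (2.58% and 1.94%). After quantile normalization they were 1 and 0 (0.311% and 0.386%), and 1 and 7 (1.51% and 2.89%). Under median-ratio scaling CG11891 and CG11889 still passed against agar, at adjusted p = 0.0101 and 0.0103, but not against glucose, and CG31300 no longer passed against agar (0.132). With the block the family counts were 2 and 14 (all genes 3.6% and 43.2%), and 2 and 23 (4.78% and 51.2%).

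The gene listed as mwh (multiple wing hairs) encodes a protein that limits where hairs form on wing cells, downstream of planar cell polarity. It was listed at 854, 634 and 562 RPKM on standard medium, at 279, 337 and 199.9 on glucose and at 351, 207 and 109.5 on agar. The standard libraries were well above the rest and agar replicate 3 was far below all others. The differences were 2.53-fold from glucose and 3.37-fold from agar. In the RefSeq annotation the span of mwh overlaps 8 other genes, 6 of them named as lysozymes (LysB, LysC, LysD, LysE, LysP and LysS). Lysozymes are antibacterial and digestive enzymes of the midgut, but LysC is not listed there as protein-coding. LysD stood at a mean of 10260 RPKM on standard medium, 4191 on glucose and 3673 on agar, LysB at 4662, 1749 and 1441, and LysE at 1433, 588 and 497. The level of mwh was 13.6 to 16.2% of that of LysB, 5.96 to 6.99% of that of LysD and 41.2 to 49.0% of that of LysE in the 9 libraries, so it kept a nearly fixed ratio to these genes on every diet. How many of the reads listed under mwh came from the lysozymes was not tested, and its value is therefore uncertain. Of 6 other planar polarity genes tested, 0 were higher against either diet (0.908% and 2.23% of all genes). Lower than on glucose was 1 and lower than on agar were 3 (23.1% and 38.2% of all genes), with 0 under median-ratio scaling. With the block 4 were lower than on glucose and 3 lower than on agar (43.2% and 51.2% of all genes). The gene fz, the polarity receptor frizzled, was at 18.3 ± 5.57, 27.7 ± 1.76 and 25.6 ± 10.0 RPKM on standard medium, glucose and agar. LysB, LysD and LysE met every numeric condition too and were among the names set aside.

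**Figure D3:**
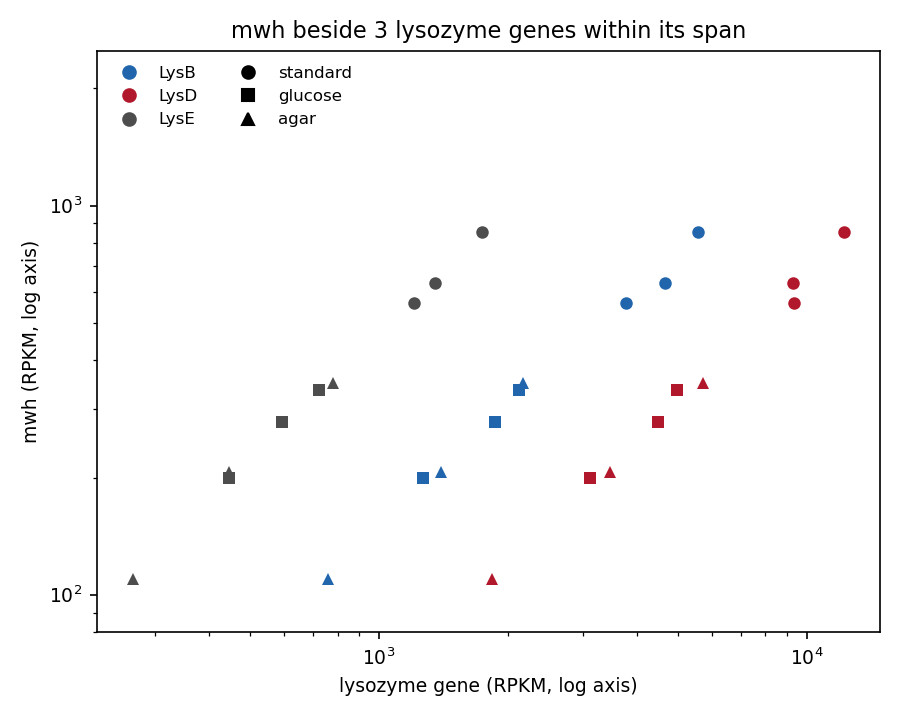
Level of mwh against the levels of LysB, LysD and LysE in the same library, as RPKM on log axes; colours stand for lysozyme genes and symbols for diets. For each lysozyme gene the 9 points fall along a line, with mwh at 13.6 to 16.2% of LysB, 5.96 to 6.99% of LysD and 41.2 to 49.0% of LysE.

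CG6867 had 7.73, 8.66 and 6.51 RPKM on standard medium, 5.45, 3.94 and 1.60 on glucose and 5.68, 3.95 and 1.65 on agar, which were 920 to 1213 reads on standard medium, 189 to 659 on glucose and 229 to 688 on agar. Glucose and agar libraries of the same repeat were nearly equal, and on both diets the repeats lay much further apart than on standard medium. The differences of the log2 means were 2.33-fold and 2.27-fold. Taken within repeats, standard minus glucose was 0.51 in repeat 1, 1.14 in repeat 2 and 2.02 in repeat 3. CG7888 gave 0.46, 1.19 and 1.86 in the same repeats, so for both genes the difference was smallest in repeat 1 and largest in repeat 3. CG15096 and Cht9 had their smallest difference in repeat 3, with 0.12 and 0.70 there against 1.21 and 1.48 in repeat 1.

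The repeats of a diet differed in the 15 genes too. The median SD of their log2 values was 0.23 on standard medium, 0.27 on glucose and 0.41 on agar, beside 0.19, 0.14 and 0.23 over all tested genes. Agar replicate 1 was the highest of the 6 poor-diet libraries for 9 of the 15, agar replicate 3 the lowest for 5 and agar replicate 2 for 6. In 9 genes all 3 libraries of repeat 1 lay above their diet mean, a pattern found in 27.8% of tested genes, and in 7 genes all 3 libraries of repeat 3 lay below it, as in 28.3% of tested genes. Each repeat held 1 library of each diet, and within each of the 3 repeats all 15 genes were higher on standard medium than on either other diet, as the choice requires.

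**Figure D4:**
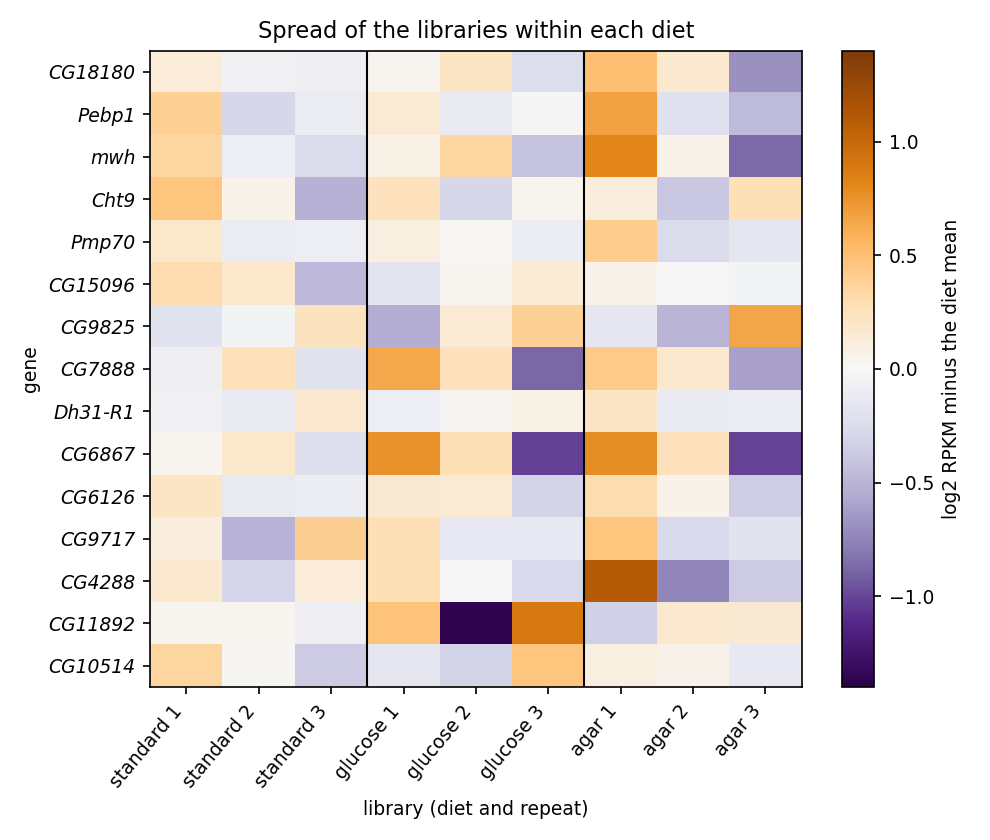
Deviation of each library from the mean of its diet on the log2 RPKM scale, for the 15 genes (rows) and 9 libraries (columns); orange is above and purple below the diet mean. Agar replicate 1 is above its mean for 13 of 15 genes and agar replicate 3 for 3, and CG7888, CG6867 and mwh fall far below in repeat 3 on glucose and agar.

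The choice required every standard library to lie above the other diets, so values by standard library are descriptions too. In standard replicate 1 the typical histone gene was not raised. The summed non-polyadenylated transcripts were still higher there than in any glucose or agar library. With standard replicate 1 alone, the median over the 15 genes was 1.23 above the mean of glucose and agar, and the smallest value was 0.77. With standard replicates 2 and 3 it was 1.10, and the smallest was 0.66. For 10 of the 15 standard replicate 1 was the highest standard library, and for 1, CG9825, it was the lowest. Single genes differed more: Cht9 was at 1.72 in replicate 1 and 1.03 in replicates 2 and 3, Pebp1 at 1.68 and 1.10, and CG10514 at 2.05 and 1.52. The part of the histone-rich libraries and of the raised non-polyadenylated transcripts in these values was not tested.

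The threshold of 0.7 cut through a continuous range of values. On the smaller of both differences, the closest genes inside were Pmp70 at 0.72, CG6126 at 0.73 and CG15096 at 0.73. The closest outside were shf at 0.69, CG5377 at 0.68 and aay at 0.67, with all other conditions met. At a threshold of 1 in place of 0.7, 8 genes remained: Cht9, mwh, Pebp1, CG11892, CG4288, CG10514, CG9717 and CG6867. Median-ratio scaling raised standard minus glucose of every gene by a common amount, and standard minus agar likewise. That makes the conditions of 0.7 easier to meet, so it is no check on the choice. After it all 15 still qualified, among 59 genes. After quantile normalization 12 did, among 36, without CG15096, CG18180 and Pmp70. When each of the 9 libraries was left out in turn, Cht9, Dh31-R1, CG10514 and CG9717 qualified every time.

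**Figure D5:**
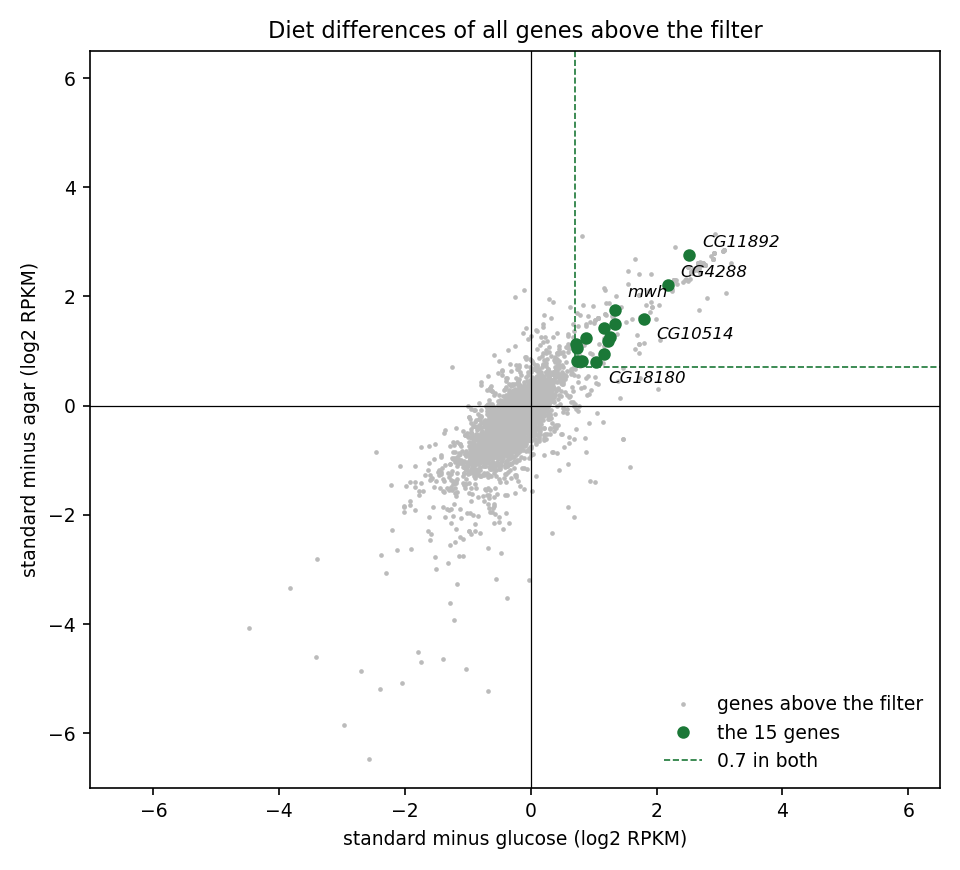
Standard minus agar against standard minus glucose on the log2 RPKM scale, for the 8036 genes above the expression filter (grey) and the 15 chosen genes (green); dashed lines mark 0.7 on both axes. Most grey points lie below 0 on both axes, with medians of -0.33 and -0.36, and the green points extend from the corner of the dashed lines to CG11892 at 2.52 and 2.75; grey points in the same corner failed another condition or were set aside by name.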

How the data were processed

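Gene expression was measured by stranded mRNA sequencing of Trizol-extracted RNA in 9 whole-gut libraries, per the labels. The deposited files give 1 log2 RPKM value per gene and library as made by the authors, and the submitters' processing notes name CASAVA 1.82, Bowtie2 2.1 and limma without their settings. Genome build, annotation and strand setting were not given in the sources used here. Library totals of 34899709 to 48389188 reads were solved from the values of genes with a single transcript, and whole reads (within 0.01) were recovered for 5 of the 15 genes. Limits on precision from these totals cover counting error only.

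The 15 genes were found with the conditions stated in the report. The genes, their lists and families were chosen with earlier results of these data known, and the family lists after the 15 genes were known. Gene names were matched to the RefSeq table of Release 6 plus ISO1 MT (7878 current symbols, 2198 older, 169 without a match), which served for names, gene order and overlaps of gene spans only. All 15 genes are given in full, besides up to 2 other genes per list with the smallest p; further relatives and neighbours were named after their values were seen.

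Other genes were tested on the deposited log2 scale with limma 3.58.1 (R 4.3.3), 1 mean per diet, moderated variances with a trend, a minimum of 1 RPKM in 3 or more libraries, and Benjamini-Hochberg adjustment, with a threshold of 0.05. The fit was also run on simulated data with independent noise, without pairing of repeats or a general shift between diets. That run cannot show how the fit behaves where the data have these features. Repeat numbers paired the libraries: deviations from the diet means correlated at 0.285 to 0.578 between libraries of the same repeat and at -0.520 to 0.169 between others. A fit with the repeat as a block was therefore run beside the main one. Further alternatives were other scales, filters and normalizations, the 6 compared libraries alone and each library left out. Standard replicate 1 as the only standard library, and scaling together with the block, were chosen after seeing the data. Tables and figures were made with pandas 2.3.3, NumPy 2.4.6 and Matplotlib 3.10.9 in Python 3.11.15. Promoter and protein sequences were not analysed here.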

Additional observations from a re-analysis of the deposited data

How the results depend on the processing

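Because the choice put every standard library above all others, leaving out libraries could not turn a difference of the 15 genes negative. Their median differences from both other diets were positive under every setting tried. With single libraries left out they were 1.03 to 1.38 from glucose and 1.07 to 1.33 from agar. Their median agar minus glucose difference stayed between -0.28 and 0.02. Of 570 recomputed differences of single genes, 541 moved by less than the spread between replicates, 28 by more, and 1 reversed, CG18180 against agar after quantile normalization (-0.10). Leaving out 1 library shifts a diet mean too little to exceed that spread, so those settings could only add to the 541. The 28 were 9 under median-ratio scaling, 7 after quantile normalization, 6 on the log2(RPKM + 1) scale and 6 with standard replicate 1 alone. The number of genes that met the conditions was 59 after median-ratio scaling, 36 after quantile normalization, 8 at a threshold of 1, 8 at a minimum of 10 RPKM, 26 with no name set aside, 48 with standard replicate 1 as the only standard library, and 11 to 24 with single libraries left out, the highest without standard replicate 1. The counts of all genes that passed moved more. Against glucose 1926 genes passed (73 higher on standard medium), but 1125 at a filter of 5 RPKM, 76 after median-ratio scaling (49 higher), 56 after quantile normalization (25 higher), 413 with scaling and the block, 2 with standard replicate 1 alone, and 23 to 2725 with single libraries left out, the lowest without glucose replicate 2 and low values also without glucose replicates 1 and 3 and standard replicates 2 and 3 (45, 283, 762 and 211). Against agar 3249 passed (179 higher), but 2067 at 5 RPKM, 363 after median-ratio scaling (207 higher), 353 after quantile normalization (121 higher), 1975 with the 6 compared libraries, 1157 with scaling and the block, and 1724 to 3243 with single libraries left out, the lowest without agar replicate 2, with 1936 without standard replicate 3. With standard replicate 1 alone limma gave 0, with 2487 at an unadjusted p under 0.05. Between glucose and agar 22 passed, but 47 at 5 RPKM, 13 after median-ratio scaling, 11 after quantile normalization, 2 with the 6 compared libraries, 195 with scaling and the block, and 1 to 106 with single libraries left out, the highest without agar replicate 1 and at most 9 without any other. With the repeat number as a block 3760 genes passed against glucose, 4498 against agar and 180 between glucose and agar. Where 1 library stood alone for a diet, it was assumed to vary like the others. A filter of 5 RPKM tests fewer genes by construction, and for the other settings the cause was not tested.

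Among relatives and neighbours, differences changed sign as follows. Under median-ratio scaling, with and without the block, the values against glucose were 0.21 for Dh31, 0.048 for CG31300, 0.13 for CG16700 and 0.049 for Pex10 (0.057 after quantile normalization), and those against agar 0.15 for Dh31 and, for CG7054, which had passed as lower, 0.051. With standard replicate 1 alone Dh31 gave 0.031 and CG10513 0.42 against glucose. With single libraries left out, CG10513 ranged from -0.80 to 0.008 and CG4991 from -0.086 to 0.28 against glucose.

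Depth limits the genes with few reads most: CG10514 had 33 to 53 reads on glucose, and for 10 of the 15 genes whole reads could not be recovered.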
